A study of Homo sapiens with 12 samples.

Results

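Keratins are the intermediate filament proteins of epithelial cells. A filament is built from heterodimers of an acidic type I keratin and a basic type II keratin, so a cell needs members of both types. Filaments are anchored at desmosomes, which join neighbouring cells, and at hemidesmosomes, which hold cells to the basement membrane. Simple epithelia are known for KRT8, KRT18, KRT19 and KRT7. KRT15 and KRT17 are best known from basal cells and appendages, KRT6A from injured or activated epidermis, and KRT81 and KRT86 from the hair shaft.

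The 10 keratin genes described here were listed by symbol, with earlier results of these data known. Their counts beside those of all genes are therefore a description. The list holds the type I genes KRT18, KRT19, KRT15 and KRT17 and the type II genes KRT7, KRT8, KRT6A, KRT80, KRT81 and KRT86. They are 10 of the 27968 gene symbols in the tables and 10 of 55 keratin genes, and 9 of them were among the 15304 genes with enough counts to test. RNA was sequenced from the lung cancer line A549 and the breast cancer line MDA-MB-231, each in 2D culture and in 3D culture based on Matrigel, a basement membrane extract. Both cultures used DMEM with 10% FBS, and no treatment was given. The 2D cells were lysed near 80% confluence and the 3D cells after 4 days. Each of the 4 groups (A549 2D, A549 3D, MDA-MB-231 2D, MDA-MB-231 3D) had 3 libraries, 12 in all. The series asked which genes the extracellular matrix regulates in cancer cells. Each line stands for 1 tumour. Whether libraries are separate cultures is not in the labels, and p-values then cover no more than the spread between libraries, which may be technical. The 2 cultures also differ in density and time, which cannot be told apart from the matrix.

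Total expected counts, the read counts that the RSEM program estimates per gene, ranged from 5609327 to 28171901 per library. Both extremes were A549 3D libraries, replicates 2 and 3. Replicates of A549 3D scattered more (biological coefficient of variation 0.18) than those of the other groups (0.0377 to 0.0563), so a shared estimate of spread may make errors for A549 3D too small. TPM is a level scaled to transcript length and to the library sum. Short structural RNA genes took 33.83% of it in 2D and 49.52% in 3D in A549, but 1.199% and 3.89% in MDA-MB-231. TPM is therefore used below to compare genes within a library, and CPM, the count scaled to library size by TMM but not to length, to compare libraries. Mean fragment length was also shorter in 3D, at 136.7 against 179.6 bases in A549 and 183.8 against 212.4 bases in MDA-MB-231. The part of fragment length in the results was not tested, and removal of the structural RNA genes left 8 keratins called in A549 and 9 in MDA-MB-231, as with them.

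The epithelial label of the lines held in part. The marker sums given here are in TPM, so they do not rank the lines or the cultures. Among 5 epithelial markers the summed level in A549 was 9.03 to 9.43 TPM in 2D and 26.4 to 30.3 TPM in 3D. In MDA-MB-231 it was 83.2 to 85.9 TPM and 91.8 to 99.9 TPM. CDH1, the cadherin of epithelial junctions, stood at 3.74 TPM ± 0.0755 (SD, n = 3) in A549 2D and 0.70 TPM ± 0.17 in MDA-MB-231 2D. On scaled counts in 2D, CDH1 was the 1 marker of these 5 called higher in A549, and 4 were called lower (edgeR). Over all tested genes 42.8% were higher and 38.8% lower. In 3D, 2 of the 5 were higher in A549 and 2 lower (background 43.9% and 39.2%). The 9 lung alveolar markers summed to 9.55 to 10.7 TPM in A549 2D and 6.55 to 13 TPM in A549 3D, and to 17 to 17.7 TPM and 13.3 to 14.1 TPM in MDA-MB-231. A single gene made up most of the alveolar sum in each group. The surfactant genes SFTPA1 and SFTPC were at 0 to 0.09 TPM on average in every group. SFTPD, a surfactant gene that was not tested, was at 0.067 TPM in A549 2D and 0.533 TPM in A549 3D, and at 0.03 and 0.1 TPM in MDA-MB-231. The 6 luminal breast markers summed to 54.6 to 57.8 TPM in A549 2D and 218 to 293 TPM in A549 3D, and to 84.7 to 96.3 TPM and 114 to 125 TPM in MDA-MB-231. All 4 tested markers of that list rose in A549 (XBP1 by 2.48 ± 0.111, TFF1 by 5.86 ± 0.281, FOXA1 by 1.86 ± 0.115 and GATA3 by 1.79 ± 0.362 on the log2 scale), and in MDA-MB-231 2 rose and 2 fell. XBP1, the bulk of the luminal sum, was at 49.61 TPM in A549 2D and 72.33 TPM in MDA-MB-231 2D. On scaled counts XBP1 was instead higher in A549 2D, by 0.27 ± 0.108 on the log2 scale (edgeR, adjusted p = 0.0329). The hormone receptor genes ESR1 and PGR, which were not tested, were at 0 to 0.13 TPM on average. Leukocyte markers summed to 3.69 to 4.44 TPM and 6.81 to 16.2 TPM in A549 2D and 3D and to 125 to 144 TPM and 226 to 251 TPM in MDA-MB-231 2D and 3D. CD68 carried nearly all of the sum in MDA-MB-231 (134.2 and 240 TPM), while CD3E and MS4A1 were at 0 in every library and PTPRC was at most 0.273 TPM as a group mean. Endothelial markers summed to at most 5.67 TPM and fibroblast markers to at most 4.81 TPM, with DCN at 0 throughout. The part of CD68 and of the epithelial and luminal markers in the keratin results was not tested.

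In Matrigel the keratins of A549 changed in both directions. KRT8, KRT18, KRT19 and KRT15 rose 2.74- to 8.84-fold, while KRT7, KRT80 and KRT81 fell 2.02- to 8.94-fold. KRT86 fell 1.27-fold. In MDA-MB-231, 7 keratins rose and KRT17 and KRT81 fell. With edgeR's quasi-likelihood test and an adjusted p under 0.05, 8 of 9 tested keratins were called in A549 (4 higher, 4 lower), where 65.6% of all tested genes were called (34.1% higher and 31.5% lower). In MDA-MB-231, 9 of 9 were called (7 higher, 2 lower), against 67.6% of all genes (33.4% higher and 34.2% lower). At least 2-fold were 7 of the 9 in A549 (background 26%) and 5 of the 9 in MDA-MB-231 (background 23.7%). The median log2 change of the 9 keratins was -0.34 in A549 and 0.62 in MDA-MB-231, beside 0.03 and 0 over all genes.

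**Figure D1:**
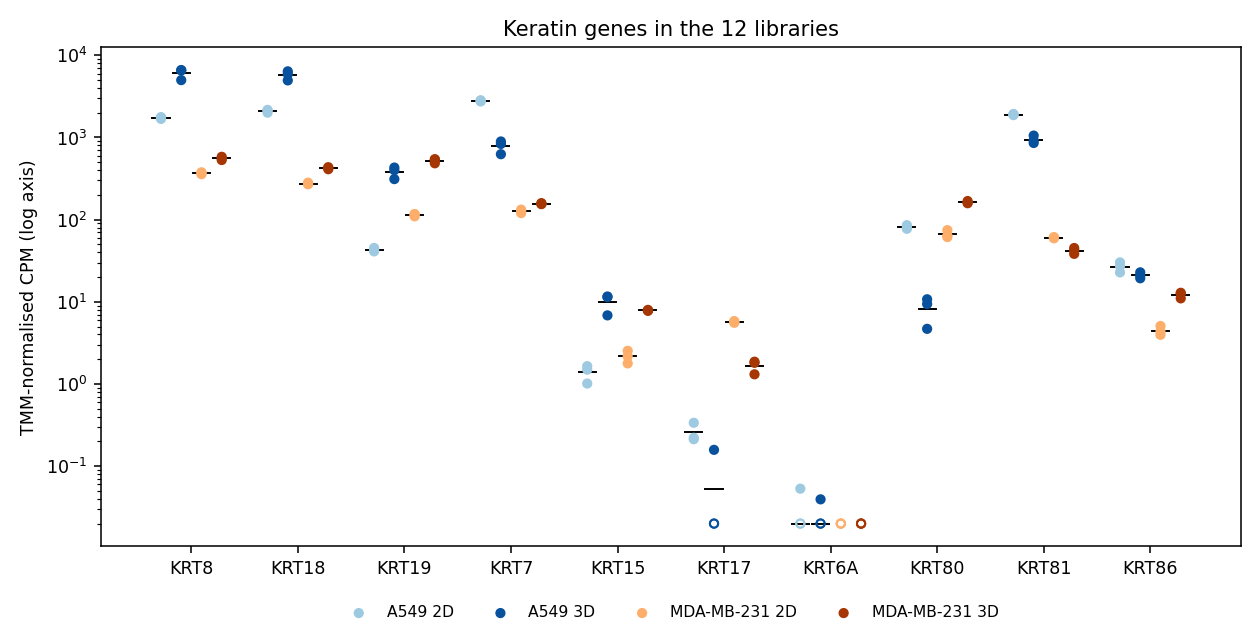
TMM-normalised CPM on a log axis for the 10 keratin genes, with 1 point per library and a bar at the mean of 3 libraries, coloured by group. Open points at the bottom edge stand for 0. A reader should see KRT8, KRT18, KRT7 and KRT81 as the 4 highest in A549, KRT6A near 0 in all groups, and the opposite steps of KRT7 and KRT80 in A549 and MDA-MB-231.

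KRT8 is the type II partner of the simple epithelial pair. Its level in A549 was 1757, 1761 and 1683 CPM in 2D and 6542, 4985 and 6614 CPM in 3D. In MDA-MB-231 it was 368.2, 376.5 and 357.1 CPM in 2D and 581.6, 531.2 and 557.3 CPM in 3D. The cultures did not overlap in either line, and the step was larger in A549. The log2 change was 1.80 ± 0.10 (SE; adjusted p = 4.64e-10) in A549 and 0.60 ± 0.098 (adjusted p = 5.35e-05) in MDA-MB-231.

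KRT18, the type I partner of KRT8, followed it closely. Its libraries read 2166, 2123 and 2002 CPM in A549 2D and 5927, 4947 and 6379 CPM in A549 3D. In MDA-MB-231 they read 282.1, 273.7 and 269.2 CPM in 2D and 424.6, 410.7 and 434.8 CPM in 3D. Again no 3D library reached down to a 2D library. The log2 change was 1.46 ± 0.091 (adjusted p = 1.74e-09) in A549 and 0.62 ± 0.09 (adjusted p = 1.58e-05) in MDA-MB-231. On log2(TPM + 1), where the median of all genes shifts by -0.25 in MDA-MB-231, the rises of KRT8 and KRT18 in that line were 0.17 and 0.18 and were not called (limma, adjusted p = 0.243 and 0.174).

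The ratio of KRT8 to KRT18 tells whether the partners moved by the same factor. As a ratio of TPM it was 0.657 ± 0.0114 (SD, n = 3) in A549 2D and 0.841 ± 0.0399 in A549 3D. The 3D libraries all lay above the 2D libraries, with an exact two-sided permutation p = 0.1, the smallest that 3 against 3 libraries can give. In MDA-MB-231 the ratio was 1.04 ± 0.0251 in 2D and 1.04 ± 0.0387 in 3D, a difference of -0.00619 (exact permutation p = 0.9) whose sign changed when single libraries were left out. Both genes share part of their sequence with other genes. GENCODE v29 genes other than the gene itself held 29.2% of the 50-base windows of KRT8 and 30.4% of those of KRT18. Most of these shared windows occurred in no other gene of the deposited tables. Other genes that are listed there held 2.32% and 1.08%, and counts can be split only between listed genes. The expected counts of KRT8 and KRT18 were not whole in any of the 12 libraries, which is the mark of reads split between genes. The genes also overlap on opposite strands. In reverse, KRT8 held 20.6% of the windows of KRT18, and KRT18 held 3.74% of those of KRT8. The strand setting of the counting is not given in the sources used here, so reads of KRT8 and KRT18 may not have been told apart.

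KRT19, the smallest keratin and one that lacks the usual tail domain, had the largest rise among the 10 genes in each line. A549 gave 41.08, 45.24 and 43.1 CPM in 2D and 400.1, 311.4 and 430.1 CPM in 3D. MDA-MB-231 gave 116.8, 116.1 and 109.7 CPM in 2D and 537.3, 485 and 544.1 CPM in 3D. The lowest 3D library was well above the highest 2D library in both lines. The log2 change was 3.14 ± 0.11 (8.84-fold; adjusted p = 2.74e-12) in A549 and 2.19 ± 0.104 (4.57-fold; adjusted p = 2.6e-10) in MDA-MB-231. None of its 50-base windows occurred in another gene of the deposited tables, and its counts were whole in all libraries.

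KRT7, a type II keratin of glandular and ductal epithelium, went the other way in A549. It stood at 2742, 2810 and 2827 CPM in A549 2D and at 834.8, 625.6 and 893.8 CPM in A549 3D. In MDA-MB-231 it stood at 125.7, 132.4 and 120.1 CPM in 2D and at 156.1, 154.4 and 158.8 CPM in 3D. Groups did not overlap, but the step in MDA-MB-231 was small. The log2 change was -1.83 ± 0.107 (3.55-fold lower; adjusted p = 8.2e-10) in A549 and 0.31 ± 0.105 (1.24-fold higher; adjusted p = 0.0159) in MDA-MB-231. The direction in MDA-MB-231 depended on the scale: on log2(TPM + 1) the change was -0.12 (limma, adjusted p = 0.466), and without replicate 3 of MDA-MB-231 2D the call was lost (edgeR, adjusted p = 0.0636). The antisense gene KRT7-AS lies inside KRT7 on the other strand and holds 10.4% of its 50-base windows in reverse. KRT7-AS had 37.1 TPM ± 3.26 in A549 2D and 2.7 TPM ± 0.531 in A549 3D, a log2 change of -3.13 (adjusted p = 1e-11). In MDA-MB-231 KRT7-AS had 3.46 TPM ± 0.46 in 2D and 0.56 TPM ± 0.123 in 3D, a log2 change of -2.23 (adjusted p = 7.39e-07), opposite in sign to KRT7. Since the strand setting of the counting is not given in the sources used here, reads of KRT7 and KRT7-AS may not have been told apart.

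KRT15, a type I keratin of basal cells, was low in every group. A549 had 1.493, 1.648 and 1.012 CPM in 2D and 11.41, 6.837 and 11.6 CPM in 3D. MDA-MB-231 had 2.532, 2.168 and 1.78 CPM in 2D and 7.82, 7.969 and 7.779 CPM in 3D. It rose in both lines without overlap of cultures, by 2.90 ± 0.216 (adjusted p = 1.34e-08) and 1.86 ± 0.192 (adjusted p = 5.21e-07) on the log2 scale.

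KRT17, a type I keratin of appendages and injured epidermis, was near the detection limit in A549. All 3 A549 2D libraries together held 14 counts and the A549 3D libraries 4, of 51211656 and 43654441. The values were 0.2211, 0.2127 and 0.3372 CPM in 2D and 0, 0 and 0.1578 CPM in 3D. The change was -1.26 ± 0.652 on the log2 scale and was not called (adjusted p = 0.121). Replicate 3 of A549 3D, the deepest library, held all 4 counts of its group, and without it the fit gave -5.15 (adjusted p = 0.025), a value that depends on the prior count. In MDA-MB-231 KRT17 fell from 5.654, 5.826 and 5.556 CPM to 1.866, 1.311 and 1.808 CPM, by 1.79 ± 0.212 on the log2 scale (adjusted p = 2.1e-06). KRT17 shared 11.7% of its windows with other listed genes, chiefly the pseudogene KRT17P1, which was listed at 0 in every group.

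KRT6A, the type II partner of KRT16 and KRT17 in activated epidermis, was not tested. It had 2 counts among 207253095 in all 12 libraries, 1 in A549 2D and 1 in A549 3D. A count of 0 allows up to 0.0489 CPM over the 3 MDA-MB-231 2D libraries and 0.0588 CPM over the MDA-MB-231 3D libraries, counting error only. Of the keratins of basal and activated epidermis that were not members, KRT5, KRT6B and KRT6C had at most 0.0467 TPM as a group mean, KRT16 at most 0.17 TPM, and KRT14 at most 0.747 TPM, in MDA-MB-231 2D.

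KRT80, a type II keratin found near desmosomes in many epithelia, had the largest fall in A549. It went from 81.54, 85.7 and 77.38 CPM to 9.402, 4.688 and 10.73 CPM, a log2 change of -3.16 ± 0.157 (8.94-fold lower; adjusted p = 1.39e-10). In MDA-MB-231 it went from 61.31, 74.52 and 64.07 CPM to 158.4, 168.3 and 161.7 CPM, a log2 change of 1.29 ± 0.126 (2.44-fold higher; adjusted p = 2.79e-07). The lines lay close together in 2D and far apart in 3D. Replicate 2 of A549 3D, the shallowest library, was the lowest of its group for KRT80 and for each of the other called keratins, in those that rose as in those that fell. Without it, 8 keratins were still called in A549, 4 in each direction.

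KRT81 and KRT86 encode type II hair keratins that are near copies, and their sequences bear on how their counts can be read. Over 1454 aligned coding bases of the GENCODE v29 transcripts (GRCh38) they were 94.2% identical, with a longest identical run of 605 bases. The first stretch below, coding bases 61 to 180 counted from the A of the start codon, has the same letters in both genes, so a read from it cannot be assigned.
KRT81: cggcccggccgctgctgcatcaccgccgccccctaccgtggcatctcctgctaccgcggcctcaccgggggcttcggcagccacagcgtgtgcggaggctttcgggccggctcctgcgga
KRT86: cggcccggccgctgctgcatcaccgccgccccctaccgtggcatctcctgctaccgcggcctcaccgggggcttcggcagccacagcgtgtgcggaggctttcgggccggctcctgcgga
Coding bases 1249 to 1308 are the 60 bases in which the genes differ most, and the 14 bases that differ are in capitals.
KRT81: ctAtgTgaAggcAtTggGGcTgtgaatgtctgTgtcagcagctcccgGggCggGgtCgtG
KRT86: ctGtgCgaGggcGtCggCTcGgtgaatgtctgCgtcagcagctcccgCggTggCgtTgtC

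Over the whole transcripts, 38.4% of the 50-base windows of KRT81 occurred in KRT86 and 33.3% of those of KRT86 in KRT81. In GENCODE v29, KRT86 also spans KRT81 and the pseudogene KRT87P on the opposite strand. Expected counts were not whole in 12 libraries for KRT81 and in 11 for KRT86. The values of both genes, and of KRT86 above all, are therefore uncertain.

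KRT81 was one of the most abundant keratins of A549. It stood at 1869, 1929 and 1907 CPM in A549 2D and at 1054, 856.5 and 918.8 CPM in A549 3D, a log2 change of -1.01 ± 0.0847 (adjusted p = 4.93e-08). In MDA-MB-231 it stood at 59.24, 61.15 and 60.77 CPM in 2D and at 45.14, 38.32 and 42.78 CPM in 3D, a log2 change of -0.52 ± 0.089 (adjusted p = 7.94e-05). It fell in both lines without overlap of cultures.

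KRT86 was far lower and did not follow KRT81. In A549 it had 30.18, 22.81 and 27.25 CPM in 2D and 22.82, 19.34 and 20.91 CPM in 3D, so that the highest 3D library touched the lowest 2D library. The change of -0.34 ± 0.118 (adjusted p = 0.019) lost its call without replicate 1 of A549 2D (adjusted p = 0.0934) or replicate 3 of A549 3D (adjusted p = 0.0558). In MDA-MB-231 it rose without overlap from 3.966, 4.336 and 5.078 CPM to 12.62, 11.01 and 12.87 CPM, by 1.44 ± 0.137 on the log2 scale (adjusted p = 2.12e-07). Of the TPM of both genes, KRT86 made up 1.164% ± 0.178 in 2D and 1.839% ± 0.0459 in 3D in A549. In MDA-MB-231 it made up 5.804% ± 0.629 and 19.47% ± 0.602. Taken as 1 gene, an alternative chosen after seeing the data, KRT81 and KRT86 fell by 1.00 ± 0.0849 in A549 (adjusted p = 5.74e-08) and by 0.26 ± 0.0882 in MDA-MB-231 (adjusted p = 0.0165) on the log2 scale.

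**Figure D2:**
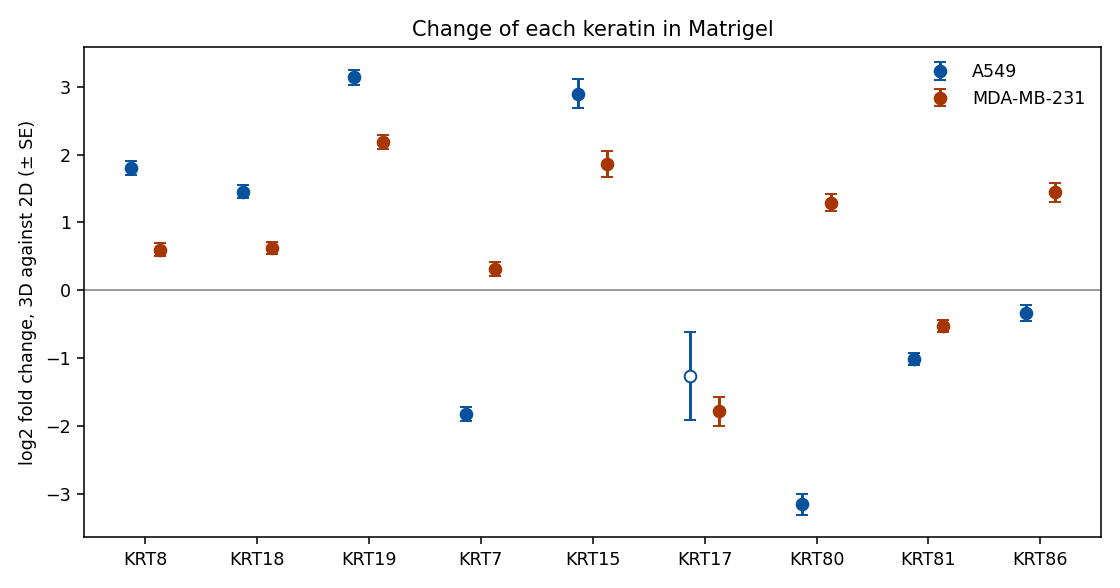
The log2 fold change of 3D against 2D for the 9 tested keratins, with bars of ± SE derived from the edgeR test, for A549 in blue and MDA-MB-231 in brown. The open point, KRT17 in A549, did not pass an adjusted p of 0.05. KRT8, KRT18, KRT19 and KRT15 lie above 0 in both lines, KRT81 lies below 0 in both, and KRT7, KRT80 and KRT86 lie on opposite sides.

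The response of the keratins differed between the lines for 8 of 9 genes by the test of the difference itself, where 56.1% of all genes were called. The change was higher in A549 for 4 of them (background 29.3%) and lower for 4 (background 26.7%), and 5 of the 9 differed at least 2-fold (background 26.5%). KRT80 differed most, with a change lower by 4.45 ± 0.202 log2 units in A549 than in MDA-MB-231 (adjusted p = 1.91e-10). KRT7, with -2.14 ± 0.149 (adjusted p = 1.53e-08), and KRT86, with -1.78 ± 0.181 (adjusted p = 8.13e-07), followed, and KRT81 differed by -0.49 ± 0.122 (adjusted p = 0.00309). KRT8 rose more in A549 by 1.20 ± 0.138 (adjusted p = 2.93e-06), KRT18 by 0.83 ± 0.126 (adjusted p = 4.49e-05), KRT19 by 0.95 ± 0.144 (adjusted p = 4.43e-05) and KRT15 by 1.04 ± 0.3 (adjusted p = 0.00782). For KRT15 the call was lost on log2(TPM + 1) (limma, 0.37, adjusted p = 0.205). No difference was shown for KRT17, at 0.52 ± 0.861 (adjusted p = 0.651), but on log2(TPM + 1) it was called, at 1.52 (limma, adjusted p = 1.51e-06). That call cannot decide the question. KRT17 had 0.2367 and 0.0333 TPM in A549 2D and 3D, far below the added 1, which holds its fall in A549 near 0 on that scale. In both lines 5 keratins were called with the same sign, KRT8, KRT18, KRT19, KRT15 and KRT81 (background 31.5%), and 3 with opposite signs, KRT7, KRT80 and KRT86 (background 14.2%).

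The same values can be read as the make-up of the keratin pool, which compares genes per length within a library. The members held 97.8% to 99.63% of the summed TPM of all 55 keratin genes as group means. In A549 2D KRT7 led with 32.06% ± 0.785 (SD, n = 3), ahead of KRT18 with 28.46% ± 0.863, KRT81 with 19.2% ± 0.362 and KRT8 with 18.7% ± 0.252. KRT81 and KRT8 overlapped between libraries. In A549 3D KRT18 made up 45.51% ± 1.04 and KRT8 38.24% ± 0.979, while KRT81 dropped to 5.625% ± 0.564 and KRT7 to 5.249% ± 0.268. KRT8 and KRT18 together were 47.33% of the members in A549 2D and 85.63% in A549 3D. KRT19 stayed a minor part of A549, with 0.5836% in 2D and 2.991% in 3D, although its rise in CPM was 8.84-fold.

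In MDA-MB-231 the shift was towards KRT19. Its share was 13.08% ± 0.191 in 2D and 31.82% ± 0.749 in 3D, where it became the most abundant keratin at 676.1 TPM ± 41.9. KRT8 held 33.27% ± 0.154 in 2D and 26.95% ± 0.589 in 3D, and KRT18 31.87% ± 0.619 and 25.97% ± 0.466. KRT7 went from 12.2% ± 0.336 to 8.095% ± 0.243 of the pool. The levels of KRT8 (572.4 TPM) and KRT18 (551.2 TPM) overlapped in MDA-MB-231 3D, as did KRT19 (200 TPM) and KRT7 (186.6 TPM) in MDA-MB-231 2D. KRT80 was 2.628% ± 0.242 of the pool in 2D and 3.478% ± 0.246 in 3D, against 0.386% and 0.02271% in A549.

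**Figure D3:**
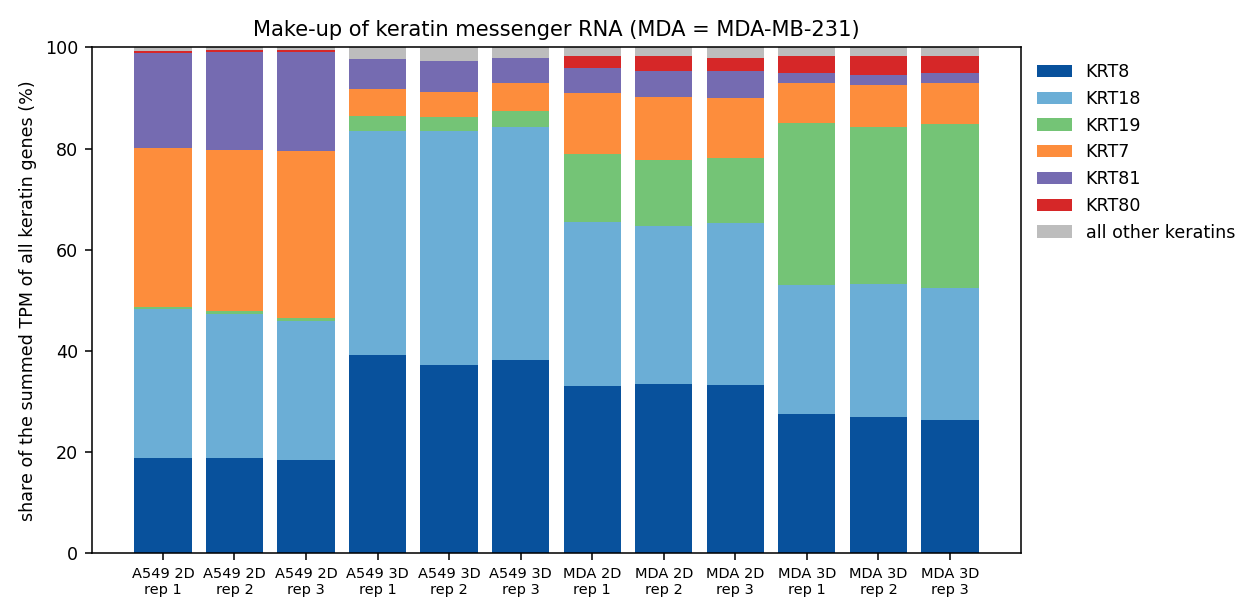
Each bar is a library, by group and replicate, and its colours give the share of 6 keratins and of all other keratins in the summed TPM of 55 keratin genes, in percent. KRT7 and KRT81 shrink in A549 3D to 5.249% and 5.625% on average, and KRT19 grows in MDA-MB-231 3D to 31.82%.

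The balance of type II to type I keratin TPM moved down in both lines. It was 2.417 ± 0.101 (SD, n = 3) in A549 2D and 1.049 ± 0.0455 in A549 3D. In MDA-MB-231 it was 1.155 ± 0.0333 in 2D and 0.6929 ± 0.0177 in 3D. The cultures did not overlap in either line, and the 2 types were closest to equal in A549 3D.

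**Figure D4:**
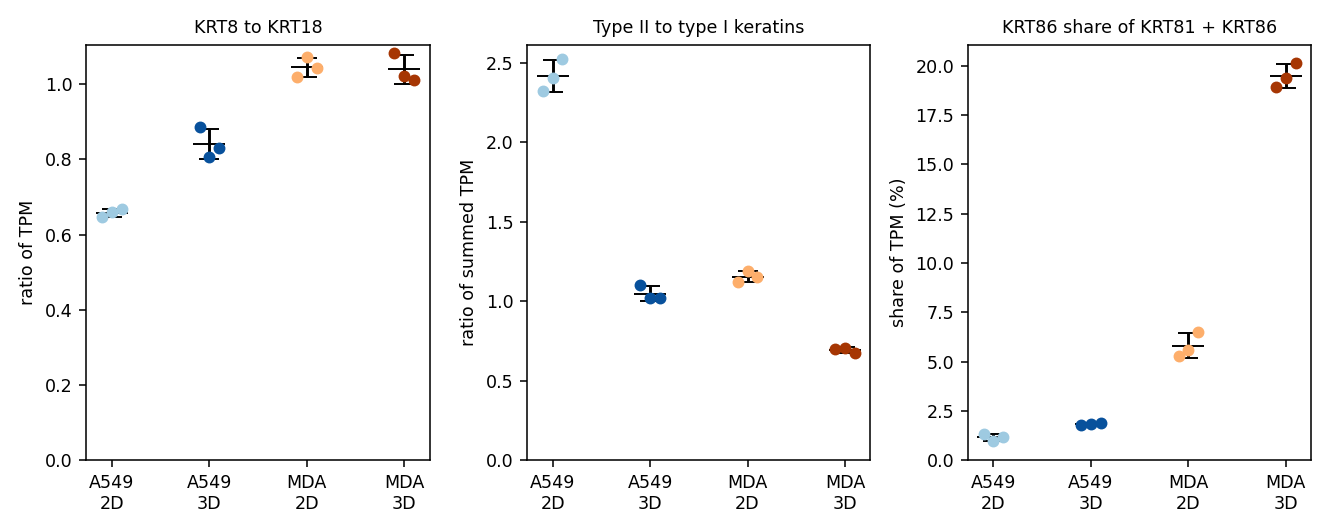
Points are libraries, bars the mean and whiskers the SD of 3 libraries (MDA is MDA-MB-231), for the ratio of KRT8 to KRT18 TPM, the ratio of summed type II to type I keratin TPM, and the share of KRT86 in the TPM of KRT81 and KRT86. The type II to type I ratio falls from 2.417 to 1.049 in A549 and from 1.155 to 0.6929 in MDA-MB-231, while the KRT86 share reaches 19.47% in MDA-MB-231 3D.

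Between the lines, the 3 most abundant keratins of A549 2D set it apart from MDA-MB-231 2D. KRT81 was 31.5-fold higher in A549 (log2 4.98 ± 0.0996), KRT7 22.2-fold (4.47 ± 0.119), KRT18 7.63-fold (2.93 ± 0.0957), KRT86 5.99-fold (2.58 ± 0.128) and KRT8 4.72-fold (2.24 ± 0.102). KRT17 was 21.6-fold lower in A549 (-4.43 ± 0.284) and KRT19 2.65-fold lower (-1.40 ± 0.105). For KRT17 the A549 2D libraries together held 14 counts, and the alternatives gave -4.808 to -3.045. All 9 tested keratins were called (81.6% of all genes were), 6 of them higher in A549 (background 42.8%) and 7 at least 2-fold (background 46.2%), but KRT15, with -0.64 ± 0.244 (adjusted p = 0.0249), and KRT80, with 0.29 ± 0.125 (adjusted p = 0.0421), lost the call when single libraries were left out. KRT80 turned to -0.48 on log2(TPM + 1) (limma, adjusted p = 0.0186), where the median of all genes shifts by -0.64.

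In 3D the distance between the lines was smaller for KRT7 and larger for KRT8 and KRT18. KRT8 was 10.9-fold higher in A549 (3.44 ± 0.107), KRT18 13.6-fold (3.76 ± 0.0993), KRT81 22.5-fold (4.49 ± 0.0986) and KRT7 5.02-fold (2.33 ± 0.109). KRT80 was 17.8-fold lower in A549 (-4.16 ± 0.159), KRT17 15-fold lower (-3.91 ± 0.464) and KRT19 1.37-fold lower (-0.45 ± 0.0999; adjusted p = 0.000584). The size for KRT17 is uncertain, since the A549 3D libraries together held 4 counts and the alternatives gave -7.79 to -1.527. All 9 were called, against 83% of all genes, 6 of them higher in A549 (background 43.9%) and 6 at least 2-fold (background 52%). KRT86 was 1.74-fold higher in A549 (0.80 ± 0.126) but at -0.14 on log2(TPM + 1) (limma, adjusted p = 0.309). KRT15, at 0.40 ± 0.175 (adjusted p = 0.0425), turned to -0.55 on that scale (limma, adjusted p = 0.00971) and lost its call without any of 5 of the 6 libraries of the comparison.

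Of the 45 other keratin genes, 6 were tested and the remaining 39 had at most 0.747 TPM as a group mean. KRT4, a type II keratin of the moist stratified lining of the mouth and oesophagus, joined the abundant keratins of A549 in Matrigel. It had 9.97, 8.75 and 7.36 TPM in A549 2D and 163.32, 149.44 and 167.21 TPM in A549 3D, with a log2 change of 4.76 ± 0.121 (adjusted p = 1.34e-12). In MDA-MB-231 it had 0.05 to 0.15 TPM in 2D and 0 in 3D. KRT20, a type I keratin of intestinal and urothelial cells, had 0.117 TPM in A549 2D and 3.96 TPM in A549 3D (log2 5.56 ± 0.385, adjusted p = 1.39e-07) and 0 in MDA-MB-231. KRT10, a type I keratin of differentiating epidermis, rose by 0.60 ± 0.138 in A549 and 1.25 ± 0.148 in MDA-MB-231 on the log2 scale. KRT34, a hair keratin, fell in A549 (-2.97 ± 1.1, adjusted p = 0.027) and rose in MDA-MB-231 (1.44 ± 0.407, adjusted p = 0.00519), at no more than 1.42 TPM in any group. In A549 it was near the detection limit, with 2, 8 and 4 counts in 2D and 1, 0 and 0 in 3D. KRT83, a hair keratin whose coding sequence is 93.4% identical to KRT81, had 1.76 and 1.85 TPM in A549 2D and 3D (log2 0.70 ± 0.258, adjusted p = 0.0331) and 0 in MDA-MB-231. KRT222 was not called in either line.

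Vimentin, the intermediate filament of mesenchymal cells, fell in A549 and rose in MDA-MB-231. VIM was 1012, 1004 and 992.6 CPM in A549 2D and 711.7, 612 and 747.7 CPM in A549 3D, a log2 change of -0.54 ± 0.0816 (adjusted p = 3.07e-05). In MDA-MB-231 it went from 2651, 2667 and 2645 CPM to 3513, 3653 and 3851 CPM, a log2 change of 0.47 ± 0.0812 (adjusted p = 9.73e-05). Per length, the keratins summed to 7364 TPM in A549 2D and 8487 TPM in A549 3D, above VIM, with 632.1 to 656.1 TPM in 2D and 251.2 to 344.1 TPM in 3D. In MDA-MB-231 VIM, at 2961 and 3052 TPM, exceeded the keratin sum of 1529 and 2123 TPM. Of 13 tested other intermediate filament genes, 4 rose and 7 fell in A549 (median log2 change -0.54), and 4 rose and 3 fell in MDA-MB-231 (0.13). Over all tested genes 34.1% rose and 31.5% fell in A549, and 33.4% rose and 34.2% fell in MDA-MB-231. The nuclear lamins LMNB1 and LMNB2 fell in A549 by 1.16 ± 0.097 and 1.80 ± 0.106. In MDA-MB-231 LMNB1 fell by 0.31 ± 0.0907, and LMNB2 was not called (0.06 ± 0.0995, adjusted p = 0.631). LMNA rose by 0.63 ± 0.109 in A549 and 1.74 ± 0.111 in MDA-MB-231. NES, a filament gene of neural precursor cells, fell by 1.46 ± 0.149 in A549 and rose by 0.76 ± 0.123 in MDA-MB-231, a difference of -2.23 ± 0.194 (adjusted p = 1.73e-07).

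Among the genes that anchor keratins at cell junctions, 6 of 12 tested desmosome and plakin genes changed more upwards in A549 than in MDA-MB-231 by the test of the difference, and 0 the other way (background 29.3% and 26.7%). Of these 12, 6 rose and 1 fell in A549 (median log2 change 0.50), and 2 rose and 7 fell in MDA-MB-231 (-0.47), beside backgrounds of 34.1% and 31.5% in A549 and 33.4% and 34.2% in MDA-MB-231. JUP, which encodes plakoglobin, rose in both, by 2.07 ± 0.148 and 2.30 ± 0.153, with no difference shown (adjusted p = 0.378). DSP, which encodes desmoplakin, the link from the desmosome to keratin, rose by 1.52 ± 0.0824 in A549 and fell by 0.56 ± 0.0796 in MDA-MB-231, a difference of 2.08 ± 0.114 (adjusted p = 1.27e-09). DSG2, a desmosomal cadherin, fell by 1.31 ± 0.0788 in MDA-MB-231 and was not called in A549 (-0.11 ± 0.0791, adjusted p = 0.239). Of 9 hemidesmosome genes, 5 rose and 2 fell in A549 (median 0.34) and 7 rose and 2 fell in MDA-MB-231 (0.87), beside the same backgrounds. ITGB4, the integrin chain that binds keratin through plectin, rose in both lines, by 2.12 ± 0.117 and 1.33 ± 0.111. LAMA3, a laminin chain of the epithelial basement membrane, fell by 3.11 ± 0.112 in A549 and rose by 1.10 ± 0.0926 in MDA-MB-231.

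Of 12 tested transcription and splicing factors of epithelial cells, 7 rose and 1 fell in A549 (median log2 change 0.96), and 5 rose and 4 fell in MDA-MB-231 (0.22). The background was 34.1% and 31.5% in A549 and 33.4% and 34.2% in MDA-MB-231, close to the shares of the list in the latter. EHF, an ETS factor of epithelia, was at 4.644, 4.572 and 4.552 CPM in A549 2D and at 203, 211.2 and 203.5 CPM in A549 3D, a rise of 5.48 ± 0.0901 (adjusted p = 2.31e-15). In MDA-MB-231 EHF rose by 1.49 ± 0.0684. GRHL3, a grainyhead factor of the skin barrier, rose by 3.30 ± 0.153 in A549 and was not called in MDA-MB-231 (-1.77 ± 0.906, adjusted p = 0.158). TFAP2C, an AP-2 factor, fell by 0.53 ± 0.0916 in A549 and rose by 1.99 ± 0.0805 in MDA-MB-231, a difference of -2.52 ± 0.121 (adjusted p = 3.33e-10). Beside these, all 5 epithelial markers rose in A549, and in MDA-MB-231 2 rose and 2 fell. CDH1 rose by 2.30 ± 0.126 in A549 and fell by 2.79 ± 0.402 in MDA-MB-231, where it was low in both cultures.

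**Figure D5:**
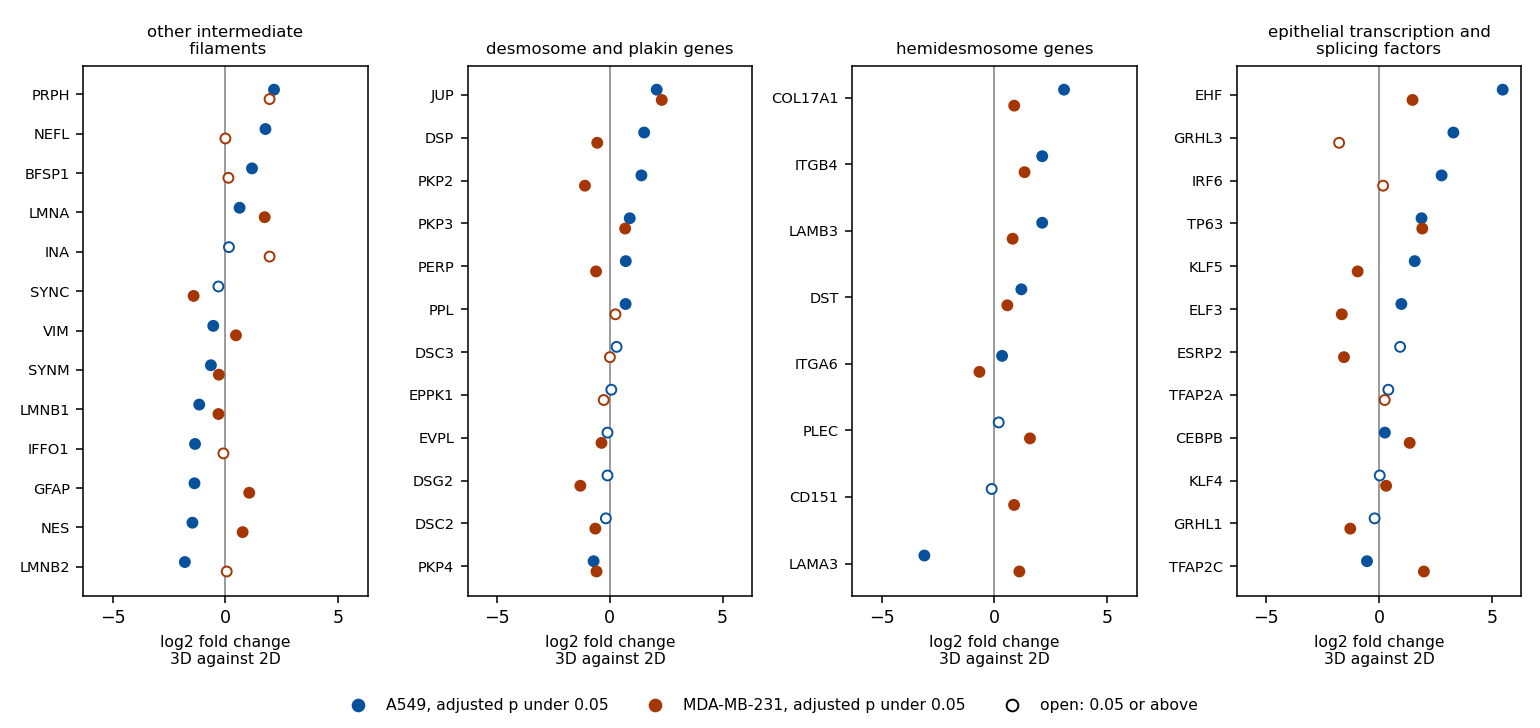
Log2 fold changes of 3D against 2D for the tested genes of 4 lists, with A549 in blue and MDA-MB-231 in brown, and filled points where the adjusted p was under 0.05. DSP and PKP2 lie on opposite sides of 0 in the 2 lines, JUP and ITGB4 lie above 0 in both, and LAMA3 stands far to the left in A549. A tested gene of the hemidesmosome list is not drawn.

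Among 8 keratin-binding proteins 2 rose and 5 fell in A549 (median log2 change -0.34) and 3 rose and 3 fell in MDA-MB-231 (0.10), where the background was 34.1% and 31.5% in A549 and 33.4% and 34.2% in MDA-MB-231. HSPB1, a small heat shock protein that associates with keratin filaments, rose by 1.21 ± 0.129 and 1.62 ± 0.136. TCHP, which encodes trichoplein, a protein of keratin filaments and centrioles, fell by 0.98 ± 0.123 in A549 and 0.33 ± 0.107 in MDA-MB-231. TRADD, an adaptor of the TNF receptor that binds KRT18, rose by 0.62 ± 0.11 in A549 and 1.25 ± 0.129 in MDA-MB-231. Only 4 of 17 genes of the squamous cornified envelope had enough counts to test; 2 rose and 1 fell in A549 (median log2 change 0.92), and 1 rose and 2 fell in MDA-MB-231 (0.31), beside the same backgrounds. CNFN rose by 2.58 ± 0.284 in A549 and 1.12 ± 0.276 in MDA-MB-231, and CSTA by 2.38 ± 0.454 in A549, with 3.27 ± 1.76 in MDA-MB-231 not called (adjusted p = 0.117). TGM1, the keratinocyte transglutaminase, fell by 1.52 ± 0.281 in MDA-MB-231 and was not called in A549 (-0.77 ± 0.352, adjusted p = 0.0794).

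Across the 12 libraries the genes whose log2(TPM + 1) was most like that of KRT8 among 14492 genes were NEFL (Pearson r = 0.9958), CYP4F3 (0.9951) and HR (0.9947). NEFL had 0.837 and 1.92 TPM in A549 in 2D and 3D and 0 in MDA-MB-231. For KRT81 they were CDH2 (0.9967), TRIM7 (0.9966) and MLLT11 (0.9954). CDH2, the neural cadherin, had 35.74 and 10.43 TPM in A549 and 0.72 and 0.0933 TPM in MDA-MB-231. The points are 4 groups of 3 libraries that share line, culture and structural RNA content, so these values describe differences between the groups. A high value does not mean the same order of groups. In MDA-MB-231 2D and 3D, KRT8 had 508.6 and 572.4 TPM, but HR had 0.07 and 0.0067 TPM.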

How the data were processed

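Libraries were made from total RNA with a stranded kit that removes ribosomal RNA, per the labels' protocols. The authors deposited RSEM gene tables with expected counts and TPM for hg19, per the submitters' processing notes. Not given in the sources used here are the aligner, the RSEM version, the annotation and the strand handling. No column belonged to another series (0).

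Expected counts were rounded, filtered with filterByExpr (15304 genes) and TMM-scaled. A model with 4 group means took in all 12 libraries and was tested in edgeR 4.0.16 (R 4.3.3) by quasi-likelihood, two-sided, with Benjamini-Hochberg adjustment over all genes. SEs were derived from the same test, as the absolute log2 change divided by the square root of the F statistic. They are approximate, above all at low counts. Alternatives used other scaling, DESeq2 1.42.0, limma 3.58.1 on log2(TPM + 1) and log2(TPM + 0.1), other filters, a replicate block and left-out libraries. The test was also run on simulated data. There all groups shared the same spread per gene, so that run does not bear on the larger scatter of A549 3D. Floors are 3 counts per group. Sequences, their 50-base windows and overlaps were read from GENCODE v29 (GRCh38), so no coordinates are given. KRT8 alone of the 10 genes matched the promoter table, and no promoter was used.

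Members and lists were chosen with earlier results of these data known. All 10 keratins are named, with other keratins of at least 1 TPM in a group and, per list and line, the 2 genes with the smallest p; a gene of this rule and a marker are not reported here. VIM, KRT7-AS, CDH1, PKP2 and the marker genes were named after their values were seen.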

Additional observations from a re-analysis of the deposited data

Results flagged for a closer look

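The 3D against 2D change differed between the lines by the test of the difference itself (edgeR, A549 minus MDA-MB-231, log2) for 8 keratins. The difference was -4.449 for KRT80, -2.141 for KRT7, -1.784 for KRT86 and -0.488 for KRT81. It was 1.203 for KRT8, 1.041 for KRT15, 0.9516 for KRT19 and 0.8331 for KRT18. Of these, KRT80, KRT7 and KRT86 were lower in 3D in A549 and higher in 3D in MDA-MB-231, and the value for KRT86 rests on reads shared with KRT81. The small rise of KRT7 in MDA-MB-231 turned to -0.1187 on log2(TPM + 0.1). The fall of KRT86 in A549 lost its call when single libraries were left out. Taken as 1 gene, KRT81 and KRT86 fell in both lines, by 1.00 in A549 and 0.26 in MDA-MB-231.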

How the results depend on the processing

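The number of keratins called stayed within 1.5 times under every alternative run: 7 to 9 in A549, 6 to 9 in MDA-MB-231, 7 to 8 for the difference between lines, 7 to 9 for the lines in 2D and 8 to 9 in 3D. This is a loose criterion. The main fit called 8 of 9 tested keratins in A549 and 9 of 9 in MDA-MB-231, so the count had little room to rise. A drop from 9 to 6 still met it. Of 764 alternative values of single genes, 724 kept direction and side of the threshold, 27 lost the call, 4 gained it and 9 changed direction. On log2(TPM + 1) and log2(TPM + 0.1) the change of KRT7 in MDA-MB-231 was -0.1182 and -0.1187, and the difference between lines was -0.4814 and -0.4942 for KRT80 in 2D, -0.5519 and -0.6383 for KRT15 in 3D, and -0.1389 and -0.1525 for KRT86 in 3D. On log2(TPM + 1) the median of all genes shifted by -0.407 in A549, -0.252 in MDA-MB-231, -0.124 for the difference, and -0.638 and -0.74 for the lines in 2D and 3D. Without replicate 3 of A549 3D the difference for KRT17 was -3.359, since its group then held no count, and leaving out single libraries gave -3.359 to 0.8359. Leaving out single libraries moved the KRT8 to KRT18 ratio difference in MDA-MB-231 from -0.0284 to 0.007196, with 0.006827 without 2D replicate 2 and 0.002624 without 3D replicate 2. In CPM, which is not per length, KRT8 and KRT18 made up 44.13%, 84.59%, 62.86% and 51.99% of the members in A549 2D, A549 3D, MDA-MB-231 2D and MDA-MB-231 3D, and the members summed to 8678, 13950, 1022 and 1885. With TPM rescaled without structural RNA genes, added after seeing the data, the members summed to 11090 in A549 2D and 16400 in A549 3D. Same-numbered libraries of the 2 cultures did not deviate together (correlations of -0.0337, 0.0607 and 0.027 in A549 and -0.0332, 0.0679 and -0.0729 in MDA-MB-231). With the replicate number as a block, 9667 genes in place of 10042 were called in A549 and 10077 in place of 10352 in MDA-MB-231. Among keratins the block ended the calls of KRT80 between lines in 2D (0.2932, adjusted p = 0.0624) and KRT15 in 3D (0.3918, adjusted p = 0.0658). Depth limits KRT17 in A549 and KRT6A in all groups.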
